A study of Mus musculus with 9 samples.

Results

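The genes described here are 10 melanosome biogenesis and transport genes, chosen by symbol from the 49671 genes counted in each library: Rab27a, Rab38, Rab32, Mlph, Myo5a, Atp7a, Hps1, Hps3, Hps4 and Hps5. Their symbols were matched to the Ensembl identifiers of the count tables, all 10 were found, and all 10 passed the filter on low counts. RNA-seq was made from dermal cells of female C57BL/6 mice, sorted as positive for KIT and negative for CD45. There were 3 libraries of melanoblasts, taken at postnatal day 0.5, 4 of quiescent melanocyte stem cells (McSC) from adults aged 8 to 10 weeks, and 2 of quiescent McSC from mice aged 24 months. KIT is a receptor tyrosine kinase of the melanocyte lineage and CD45 is an immune cell antigen. Both McSC groups came from telogen skin, the resting phase of the hair cycle, and no group carried a mutation, transgene or treatment. Newborns and adults came from in-house breeding of C57BL/6J. The aged mice came from the National Institute on Aging colony at 21 months, so colony and age cannot be told apart in that group. Each library was a pool of several animals, so every p-value measures the spread between pools.

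Melanosomes are lysosome-related organelles in which pigment cells make and store melanin. Rab32 and Rab38 are small GTPases that direct carriers with melanin enzymes from endosomes to the maturing melanosome. Hps3 and Hps5 are subunits of BLOC-2, which steers those carriers, and Hps1 and Hps4 form BLOC-3, which activates Rab32 and Rab38. Atp7a is the copper pump that supplies tyrosinase, a copper enzyme. Rab27a sits on the mature melanosome and binds melanophilin (Mlph), which recruits the actin motor myosin Va (Myo5a) and holds the organelle at the cell periphery. Loss of the last 3 gives the diluted mouse coats ashen, leaden and dilute. Loss of the Hps genes in mice gives the coat mutants pale ear (Hps1), cocoa (Hps3), light ear (Hps4) and ruby-eye 2 (Hps5).

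Libraries held 12594770 to 33710117 counts, and mitochondrial rRNA took 21.5% to 37.6% of them. Levels are counts per megacount of the library (CPM) after TMM scaling, a factor per library that balances the log ratios of most genes. The upper limit for an unseen gene, 3 counts, was worth 0.117 to 0.187 CPM, and the lowest value of any of the 10 genes was 7.23 CPM. The TMM factors were 0.560 to 0.842 for melanoblasts, 1.09 to 1.21 for adult McSC and 1.38 to 1.52 for aged McSC. Factors computed from abundant genes alone ran from 0.895 to 1.15 over all 9 libraries. Because the choice of factors shifts every log2 fold change, values under both are given for the 10 genes and for counts of the lists.

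The sorted cells carried their lineage markers, and under TMM factors most of these were lower in adult McSC, as were most of the 10 genes. The summed level of 9 lineage markers (Kit, Sox10, Mitf, Pax3, Ednrb, Dct, Tyrp1, Mlana and Pmel) was 22158, 23968 and 13164 CPM in the melanoblast libraries, 4353, 10532, 5741 and 7289 CPM in the adult libraries and 7244 and 8770 CPM in the aged libraries. Of these markers 7 fell and 0 rose in adult McSC against melanoblasts, and their median log2 fold change was -1.47; with factors from abundant genes 6 fell, without Mitf, and the median was -0.74. Melanoblast replicate 3, lowest of its group in this sum, was also the lowest melanoblast library for 8 of the 10 genes. Adult replicate 1 had the lowest sum of the adult libraries and the lowest level of 7 of the 10 genes, and adult replicate 2 had the highest sum and the highest level of 9. These ranks are under TMM factors and were not taken with factors from abundant genes. For melanoblast replicates 1, 2 and 3 the factors were 0.560, 0.569 and 0.842 under TMM, and 0.933, 0.953 and 1.05 from abundant genes. A larger factor lowers every level of a library. Immune genes that the sort should remove summed to 2.45 to 7.59 CPM in melanoblasts, 7.57 to 11.5 CPM in adult McSC and 13.6 to 14.6 CPM in aged McSC. Against melanoblasts, 9 of the 10 markers of keratinocytes and hair follicle were higher in adult McSC and passed the test, while Cdh1 fell, with 354 CPM in adult McSC and 1885 CPM in melanoblasts. The sum of the other 9 was 996 to 2222 CPM in adult libraries, against 74.6 to 243 CPM in melanoblast libraries, and it was 793 to 960 CPM in aged libraries. Schwann cell markers summed to 217 to 328, 524 to 770 and 133 to 208 CPM in melanoblasts, adult McSC and aged McSC, and fibroblast markers to 541 to 2046, 462 to 925 and 109 to 217 CPM. Markers of mast cells, which carry KIT, summed to 20.0 to 34.2, 9.32 to 12.9 and 9.62 to 11.2 CPM in the same order. Those of macrophages and dendritic cells summed to 24.2 to 41.9, 41.4 to 65.8 and 61.3 to 99.7 CPM, and those of endothelium to 38.4 to 71.9, 50.2 to 182 and 35.5 to 40.8 CPM. No marker of these lists was at 0 in all libraries of a group. The part of the marker differences in the results was not tested, and in these bulk samples fewer cells of a type and less RNA per cell cannot be told apart.

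Per length, the transport genes were the most abundant. TMM-scaled CPM per kilobase of exon put Myo5a first in every group, with means of 106 in melanoblasts, 75.3 in adult McSC and 76.4 in aged McSC. Mlph and Rab27a took the next 2 places in each group: Mlph had means of 45.1, 25.3 and 32.3 per kilobase at the 3 ages in that order, and Rab27a had 51.1, 22.3 and 21.3. These 2 genes overlapped in their library values in melanoblasts and in adult McSC. In the aged libraries Mlph, at 27.3 to 37.2 per kilobase, lay above Rab27a at 20.2 to 22.3. Atp7a had 21.6, 8.78 and 8.42 and Rab38 16.4, 11.2 and 7.89 per kilobase. Rab32 averaged 10.5, 4.09 and 3.78 per kilobase, below Rab38 at each age, but the library values of the pair overlapped in melanoblasts and adult McSC. Hps4, with means of 8.52, 4.28 and 4.06, and Hps5, with 8.68, 4.54 and 3.89 per kilobase, overlapped at each age. By exon length the BLOC genes were low apart from newborn Hps3, which averaged 18.1 per kilobase in melanoblasts but 3.69 and 3.75 in adult and aged McSC. Hps1 was the lowest of the 10 at each age, with means of 2.44, 2.08 and 2.65 per kilobase, and none of its libraries reached those of another of the 10 genes in the same group. Dividing by the longest transcript instead of all exon bases kept Myo5a first and Hps1 last in every group but moved Hps3 to rank 6 in adult McSC and to rank 5 in aged McSC, against rank 9 in both by exon length.

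**Figure D1:**
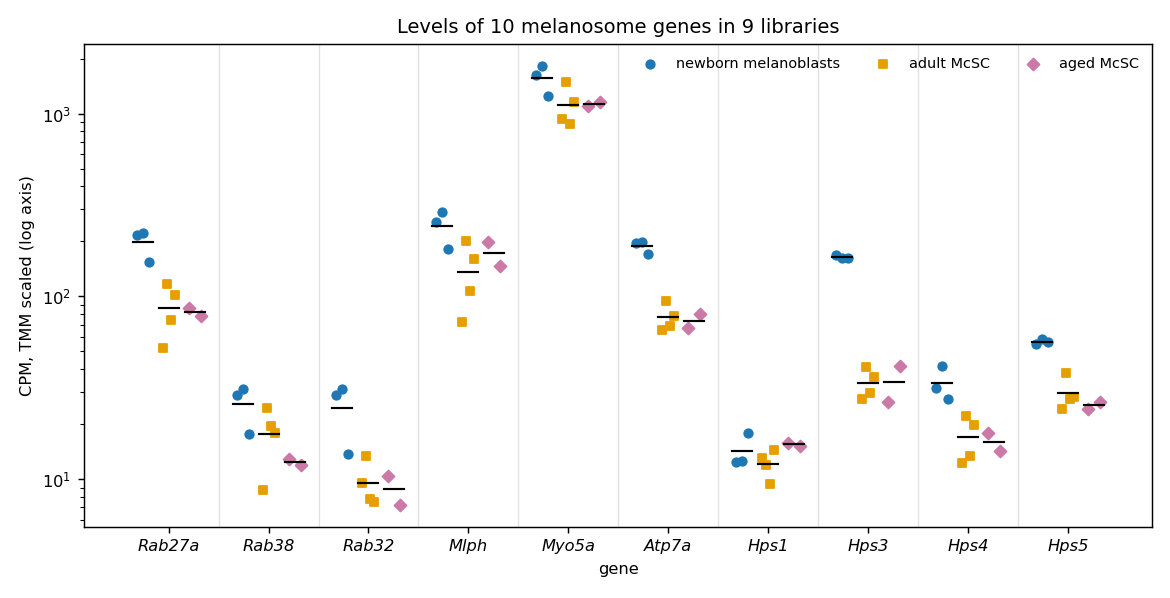
Level of each gene in each library, in TMM-scaled CPM on a log axis. Points are libraries, with melanoblasts, adult McSC and aged McSC side by side from left to right for each gene, and black bars are group means. Hps3 shows the clearest gap, with all McSC libraries at or below 41.7 CPM and all melanoblast libraries at or above 162 CPM.

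In adult McSC, 7 of the 10 genes fell against melanoblasts and 0 rose: Hps3, Rab32, Atp7a, Rab27a, Hps4, Hps5 and Mlph (edgeR's quasi-likelihood test, Benjamini-Hochberg adjusted p under 0.05 over all genes tested). The largest change was that of Hps3, 4.90-fold lower. Falling was common: 18.3% of the 31961 genes tested fell. Among the 7253 genes at least as abundant as Rab32, the lowest of the 10 by mean log2 CPM, 58.5% fell. The median log2 fold change was -0.96 over the 10 genes, 0.39 over all genes and -0.75 over those abundant genes, so the count of 7 stood near the share of those abundant genes. With factors from abundant genes, which put the median of all genes at 1.15 and that of the 7253 at 0.03, only Hps3, Atp7a and Rab27a fell, while 6.21% of all genes and 21.8% of the abundant ones did. Calls over all genes then split into 10416 higher and 1985 lower, against 4836 higher and 5840 lower with TMM factors.

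Hps3 (chr3:19995945-20035315, minus strand, mm10, ENSMUSG00000027615), the BLOC-2 subunit, changed most. It had 27.5, 41.0, 29.7 and 36.1 CPM in the adult libraries, against 169, 162 and 162 CPM in the melanoblast libraries. The groups lay far apart. The melanoblast values were almost equal under TMM factors, which were 0.560, 0.569 and 0.842 for replicates 1, 2 and 3. The raw counts were 2721, 3117 and 3219, in libraries of 28708985, 33710117 and 23688288 counts, so this near equality depends on the scaling. The log2 fold change was -2.29 (SE 0.224, adjusted p = 2.96e-08). Set against the median of genes at least as abundant as Rab32, it was -1.55 with TMM factors and -1.57 with factors from abundant genes. It passed in all 18 alternatives (9 other settings and 9 fits that each left out a library), with log2 fold changes between -2.40 and -1.54, the latter with factors from abundant genes. An exon of Cp, the ceruloplasmin gene on the opposite strand, shares 108 bases with Hps3, and how strand was counted was not given in the sources used here. Cp had 15.7, 21.4, 11.5 and 15.3 CPM in adult libraries, against 14.5, 17.9 and 32.0 CPM in melanoblast libraries, levels well under those of Hps3 in melanoblasts.

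Hps5, the partner of Hps3 in BLOC-2 (chr7:46760466-46796064, minus strand), had 24.1, 38.3, 27.6 and 28.1 CPM in the adult libraries, against 54.6, 58.4 and 56.2 CPM in the melanoblast libraries. The groups did not overlap, and the log2 fold change was -0.93 (SE 0.214, adjusted p = 0.00158). The remaining subunit, Hps6, was at 1.44 CPM in adult McSC and 1.53 CPM in melanoblasts, and did not pass the test. The fall of Hps5 did not pass with factors from abundant genes (log2 fold change -0.19, adjusted p = 0.312), and its groups then overlapped. Its change was close to the median of genes at least as abundant as Rab32, 0.19 below it with TMM factors on the log2 scale, whereas that of Hps3 was not.

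Of the BLOC-3 subunits, Hps4 passed the test and Hps1 did not. Hps4 (chr5:112343083-112378414, plus strand) had 12.3, 22.1, 13.4 and 19.9 CPM in the adult libraries, against 31.6, 41.8 and 27.6 CPM in the melanoblast libraries, with no overlap. Its log2 fold change was -0.99 (SE 0.250, adjusted p = 0.00353). With factors from abundant genes it lost the call (-0.23, adjusted p = 0.341), and the groups overlapped. Hps1 (chr19:42755105-42779978, minus strand) had 13.0, 11.9, 9.41 and 14.4 CPM in the adult libraries, against 12.4, 12.5 and 17.8 CPM in the melanoblast libraries. The groups overlapped, and the log2 fold change of -0.23 (SE 0.247, 95% interval -0.74 to 0.28, adjusted p = 0.485) turned to 0.52 with factors from abundant genes and to 0.24 with a stricter filter (5 CPM in at least 2 libraries), in neither case past the threshold. Small non-coding models overlap exons of both genes on the opposite strand, and none of them exceeded 2.01 CPM.

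Of the GTPases that BLOC-3 activates, Rab32 fell and Rab38 did not pass. Rab32 (chr10:10545002-10558265, minus strand) had 9.59, 13.4, 7.80 and 7.49 CPM in the adult libraries, against 28.9, 31.3 and 13.7 CPM in the melanoblast libraries. The groups were separated only by the narrow gap between adult replicate 2 and melanoblast replicate 3. The log2 fold change was -1.36 (SE 0.288, adjusted p = 0.000737). With factors from abundant genes it was -0.55 (adjusted p = 0.0971), and the groups overlapped. Rab38 (chr7:88430273-88491572, plus strand) had 8.77, 24.4, 19.5 and 17.8 CPM in the adult libraries, against 28.8, 31.2 and 17.6 CPM in the melanoblast libraries. The groups overlapped, and the log2 fold change of -0.55 (SE 0.284, 95% interval -1.14 to 0.03, adjusted p = 0.133) did not pass and turned to 0.22 with factors from abundant genes. Rab38 passed at -0.77 without melanoblast replicate 3 (adjusted p = 0.0288), and limma voom called it too, at -0.68 (adjusted p = 0.0210).

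Atp7a (chrX:106027276-106124926, plus strand) had 65.5, 94.7, 68.5 and 77.8 CPM in the adult libraries, against 196, 199 and 169.5 CPM in the melanoblast libraries. The groups did not overlap, and the log2 fold change was -1.30 (SE 0.211, adjusted p = 4.26e-05). It passed in all 18 alternatives and was -0.53 with factors from abundant genes (adjusted p = 0.00483).

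Among the transport genes, Rab27a fell in every setting, Mlph only in some, and Myo5a did not pass. Rab27a (chr9:73044854-73097629, plus strand) had 52.4, 117, 74.5 and 101 CPM in the adult libraries, against 218, 223 and 154 CPM in the melanoblast libraries. A pseudogene model that shares exon bases with it, Gm27186, was at most at 0.0502 CPM. The groups did not overlap, and the log2 fold change was -1.20 (SE 0.247, adjusted p = 0.000576). In the 18 alternatives it lay between -1.38 and -0.44, and the highest adjusted p was 0.0434, with factors from abundant genes. Mlph (chr1:90915085-90951142, plus strand) had 72.0, 202, 107 and 161 CPM in the adult libraries, against 255, 289 and 181 CPM in the melanoblast libraries. Adult replicate 2 lay above melanoblast replicate 3, so the groups overlapped, and the log2 fold change was -0.84 (SE 0.277, adjusted p = 0.0231). The call was held in 11 of the 18 alternatives. It was lost without adult replicate 1 (-0.54, adjusted p = 0.121), without adult replicate 3 (-0.73), without melanoblast replicate 1 (-0.80) and without melanoblast replicate 2 (-0.69). It was also lost with mitochondrial rRNA removed (-0.70), under the stricter filter (-0.37) and under factors from abundant genes (-0.085).

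Myo5a (chr9:75071015-75223688, plus strand) had 939, 1486, 876 and 1157 CPM in the adult libraries, against 1629.9, 1823 and 1244 CPM in the melanoblast libraries. The groups overlapped through adult replicate 2. The log2 fold change of -0.49 (SE 0.238, adjusted p = 0.111) turned to 0.28 with factors from abundant genes, without passing. Myo5a passed without adult replicate 2 (-0.66, adjusted p = 0.0286) and without melanoblast replicate 3 (-0.63, adjusted p = 0.0312). Limma voom called it lower as well (-0.63, adjusted p = 0.00120). Its change stood above the median of genes at least as abundant as Rab32 by 0.26 on the log2 scale with TMM factors.

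**Figure D2:**
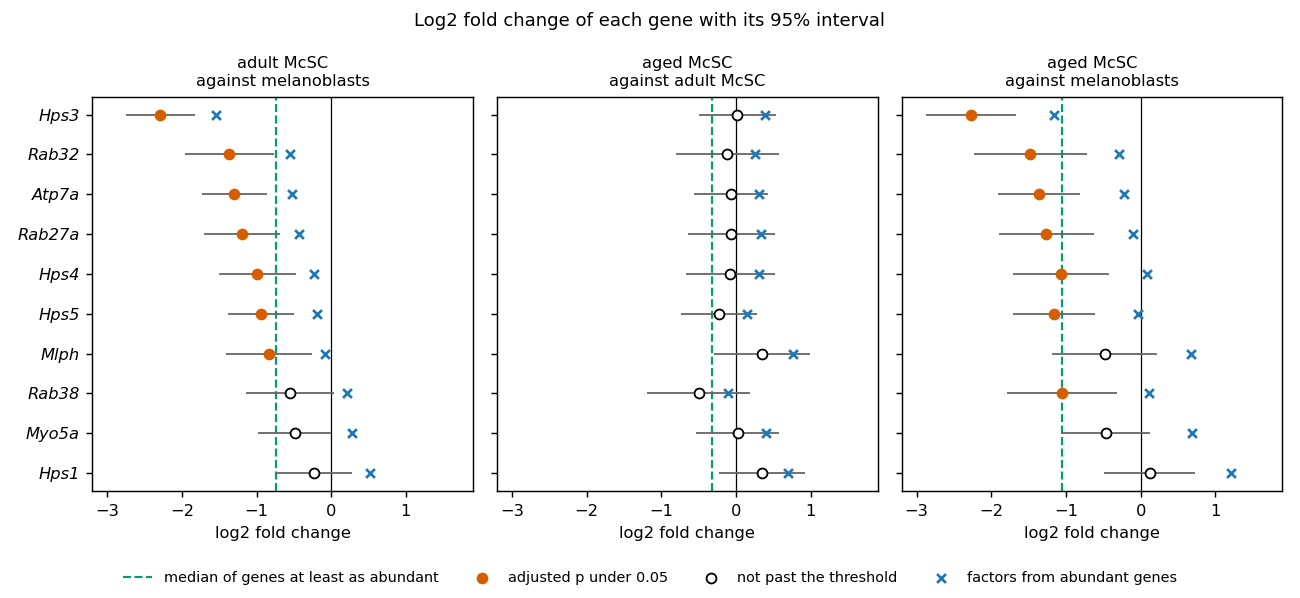
Log2 fold change of each gene in 3 comparisons, with 95% intervals from edgeR under TMM factors. Filled points have an adjusted p under 0.05, open points do not, crosses give the values with factors from abundant genes, and the dashed line is the median of the 7253 genes at least as abundant as Rab32. Hps3, at -2.29 in adult McSC against melanoblasts, lies furthest below that line in both comparisons with melanoblasts.

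In aged McSC, none of the 10 genes passed the test against adult McSC, and 0 of them had an unadjusted p under 0.05. DESeq2 and limma voom also called 0 of the 10. Few genes of any kind passed: 97 of 31961, or 0.303%, of which 80 fell and 17 rose, and the median of the 10 log2 fold changes was -0.06 beside 0.08 over all genes. With factors from abundant genes the median of the 10 was 0.32 beside 0.42 over all genes, and 0 of the 10 passed, beside 0.178% of all genes. The count of 97 was 13 without aged replicate 2, 46 without adult replicate 1, 49 without adult replicate 3 and 303 without melanoblast replicate 3, and 3275 genes had an unadjusted p under 0.05.

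The intervals show what sizes were not distinguishable. Rab27a had 86.6 and 78.5 CPM in the aged libraries, within the adult range of 52.4 to 117 CPM, and its log2 fold change was -0.06 (95% interval -0.65 to 0.52). Hps3 had 26.5 and 41.7 CPM, just outside both ends of the adult range of 27.5 to 41.0 CPM, and its log2 fold change was 0.02 (95% interval -0.50 to 0.54). Cp, which overlaps it, had 6.63 and 6.02 CPM in aged libraries, below all adult libraries. Atp7a, with 67.3 and 79.8 CPM, lay in the adult range, with a log2 fold change of -0.06 (95% interval -0.56 to 0.44). Myo5a had 1105 and 1158 CPM, also inside the adult range, with a log2 fold change of 0.02 (95% interval -0.54 to 0.58). These ranges are under TMM factors. With factors from abundant genes the log2 fold changes were 0.33 for Rab27a, 0.39 for Hps3, 0.31 for Atp7a and 0.40 for Myo5a, none past the threshold. Both aged libraries then lay above all adult libraries for Atp7a and Myo5a, but not for Rab27a and Hps3. The share of all genes separated in this way was not counted.

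Rab38 had the lowest log2 fold change of the 10, -0.50 (95% interval -1.19 to 0.19, adjusted p = 0.607). Its aged values of 12.9 and 12.0 CPM lay below adult replicates 2, 3 and 4 but above adult replicate 1 at 8.77 CPM. Mlph and Hps1 had the highest, both 0.35, with 95% intervals of -0.29 to 1.00 and -0.22 to 0.92. Mlph had 199 and 146 CPM in aged libraries, within the adult range of 72.0 to 202 CPM. Hps1 had 15.8 and 15.2 CPM in the aged libraries, above all 4 adult libraries, the highest of which was at 14.4 CPM. Rab32 had 10.4 and 7.23 CPM, Hps4 17.9 and 14.2 CPM and Hps5 24.1 and 26.4 CPM, and all of these overlapped the adult values, with log2 fold changes of -0.11, -0.07 and -0.22. With factors from abundant genes the log2 fold changes were -0.10 for Rab38, 0.77 for Mlph and 0.70 for Hps1, none past the threshold. Both aged libraries then lay above all adult libraries for Mlph and Hps1, while Rab38, Rab32, Hps4 and Hps5 still overlapped. These factors put the median of all genes at 0.42, and the share of all genes separated in this way was not counted.

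Against melanoblasts, aged McSC also had 7 of the 10 genes lower and 0 higher, beside 20.3% of all genes that fell and 66.6% of the 7253 abundant ones. This comparison shares its melanoblast libraries with the adult one and its aged libraries with the aged against adult one. The 7 were Hps3 (log2 fold change -2.27), Rab32 (-1.47), Atp7a (-1.36), Rab27a (-1.26), Hps5 (-1.16), Hps4 (-1.07) and Rab38 (-1.05). For Rab38 the adjusted p was 0.0216 and the call was lost without either aged library and without melanoblast replicate 1 or 2. Without aged replicate 2, Rab32 (-1.12) and Hps4 (-0.79) lost their calls as well, which left 4. Mlph had a log2 fold change of -0.48 (adjusted p = 0.247), Myo5a of -0.47 (adjusted p = 0.190) and Hps1 of 0.12 (adjusted p = 0.747), and these 3 did not pass, although limma voom called Myo5a lower (-0.52, adjusted p = 0.0149). With factors from abundant genes, which put the median of all genes at 1.78 beside 0.70, Hps3 alone fell (-1.15, adjusted p = 0.000693), beside 5.54% of all genes and 20.3% of the abundant ones. Mlph (0.68, adjusted p = 0.0319), Myo5a (0.68, adjusted p = 0.00368) and Hps1 (1.21, adjusted p = 0.00695) then rose, beside 48.0% of all genes and 29.9% of the abundant ones. Under the same factors Rab27a (-0.11), Rab32 (-0.28), Atp7a (-0.22), Hps5 (-0.036), Rab38 (0.12) and Hps4 (0.085) did not pass. The stricter filter also left 4 calls, with Hps3, Atp7a and Hps5 lower and Hps1 higher. Hps3 was called lower in all 18 alternatives of this comparison.

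Ratios of 2 genes within a library need no scaling between libraries. For Mlph over Rab27a, the tether over its Rab, the count ratio was 1.37, 1.72, 1.43 and 1.59 in the adult libraries, against 1.17, 1.30 and 1.17 in the melanoblast libraries. No adult library overlapped a melanoblast library. The mean log2 ratio was 0.61 ± 0.15 in adult McSC and 0.28 ± 0.08 in melanoblasts (SD, n = 4 and n = 3), a difference of 0.33. The two-sided exact permutation p was 0.0571, the smallest that 4 against 3 libraries allow, and the adjusted p over 6 ratio comparisons was 0.267. In the aged libraries the ratio was 2.30 and 1.86, above all adult libraries. The mean log2 ratio was 1.05 ± 0.22 in aged McSC and 0.61 ± 0.15 in adult McSC (SD, n = 2 and n = 4). That difference of 0.44 had an exact permutation p of 0.133, again the smallest this design allows, with the same adjusted p of 0.267. Without single libraries the differences were 0.27 to 0.38 for adult against melanoblasts and 0.29 to 0.60 for aged against adult. Because the groups did not overlap, leaving out a library could not turn their sign.

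The other ratios overlapped between the groups compared. Hps1 over Hps4, the BLOC-3 subunits, was 1.06, 0.538, 0.704 and 0.724 in the adult libraries, against 0.394, 0.300 and 0.647 in the melanoblast libraries. The difference in mean log2 ratio was 0.79 (exact permutation p = 0.114, adjusted p = 0.267). The aged libraries had 0.885 and 1.07, a difference of 0.41 from adult McSC (exact permutation p = 0.267, adjusted p = 0.320). Rab38 over Rab32 was 0.915, 1.82, 2.503 and 2.37 in the adult libraries, against 0.994, 0.997 and 1.29 in the melanoblast libraries. Adult replicate 1 lay below all melanoblast libraries and the other 3 adult libraries above all of them, with a difference of 0.71 in mean log2 ratio (exact permutation p = 0.229, adjusted p = 0.320). Aged libraries had 1.24 and 1.66, inside the adult range, with a difference of -0.31 (exact permutation p = 0.533, adjusted p = 0.533).

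**Figure D3:**
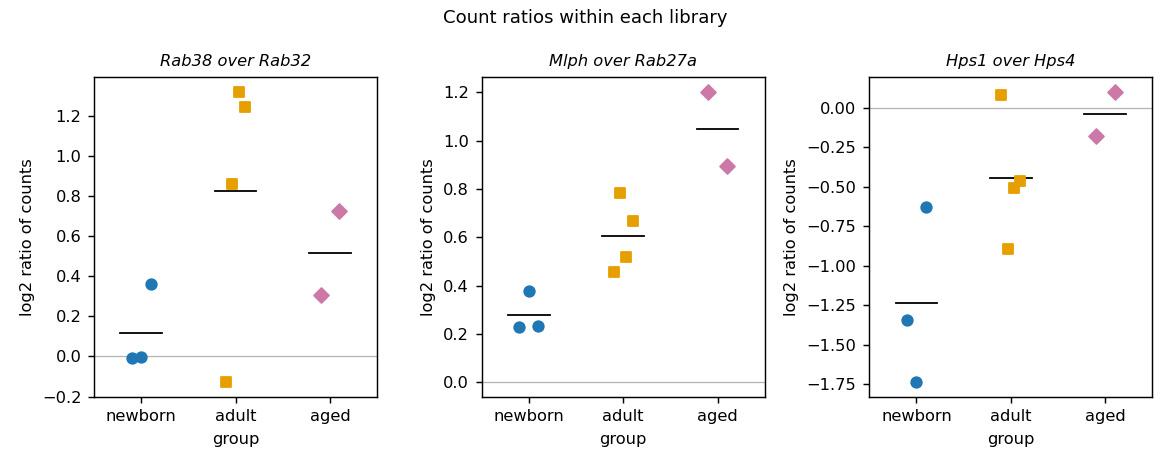
Log2 ratio of the raw counts of gene pairs in each library, with newborn melanoblasts, adult McSC and aged McSC in order of age. Points are libraries and bars are group means. For Mlph over Rab27a the 3 groups do not overlap, with means of 0.28, 0.61 and 1.05.

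Promoter sequences show which of the 10 genes carry an E-box near their start, the short element that basic helix-loop-helix factors such as MITF, the melanocyte master regulator, and its relatives TFEB and TFE3 bind. RefSeq (GRCm38.p6) gave 11 windows, from 250 bases before to 50 after a start site, for 9 of the 10 genes. Rab38 was not matched. The palindrome CACGTG was present in at least 1 window of 6 of the 9 genes (Mlph, Hps3, Hps5, Rab27a, Hps1 and Atp7a). It was present in 7.15% of all 32851 windows of this length, a share of windows and not of genes. The Rab27a match lay 246 bases before a start 19294 bases inside the gene, and the window of its first start had none. The longer palindrome TCACGTGA, which contains CACGTG, was present in Hps3 and Atp7a and in 0.974% of all windows. TCATGTG, searched on both strands and containing CATGTG, was present in Hps1 and in 3.77% of all windows. A match describes these letters, not binding. Stretches around the motif, none of which passes the RefSeq start, are given for Hps3, Atp7a, Mlph and Hps1. Hps3 and Atp7a, with the long palindrome, fell in adult McSC in every setting, but so did Rab27a, which had no TCACGTGA. The calls of Mlph and Hps1 differed. A link between motif and change was not tested. Capitals mark the motif, and each is read along the gene's strand.
Hps3, chr3:20035311-20035356, minus strand: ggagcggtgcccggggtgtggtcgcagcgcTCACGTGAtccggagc
Atp7a, chrX:106027106-106027173, plus strand: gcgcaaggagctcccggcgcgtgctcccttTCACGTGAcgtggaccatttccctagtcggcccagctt
Mlph, chr1:90915022-90915087, plus strand: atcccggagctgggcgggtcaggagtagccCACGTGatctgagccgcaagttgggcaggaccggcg
Hps1, chr19:42779979-42780023, minus strand: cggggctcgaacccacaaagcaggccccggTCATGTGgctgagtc
The motif began 16 bases before the start of Hps3, 88 before that of Atp7a, 48 before that of Mlph and 15 before that of Hps1. A CACGTG of Hps1, at the last base before its start, runs into the transcript and is not shown. No match was found for these letters in the windows of Hps4, Myo5a and Rab32.

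Other genes of the pathway were taken from a list of 77, all of which were tested. In adult McSC against melanoblasts 43 fell and 4 rose, beside 18.3% of all genes and 58.5% of the abundant ones that fell. Their median log2 fold change was -0.74, equal to that of the abundant genes within 0.01. With factors from abundant genes 19 fell and 15 rose, with a median of 0.04. Some of the 77, among them Hps6 and most BLOC-1 genes, were less abundant than Rab32, so the 58.5% is not matched to them. Melanosomal cargo fell most: 9 of 10 under both scalings, with a median of -2.45 with TMM factors. Oca2, a melanosomal anion channel protein, had a mean of 3.68 CPM in adult McSC and 56.6 CPM in melanoblasts (log2 fold change -3.94, adjusted p = 4.20e-11). The ion exchanger Slc24a5 had 27.1 CPM in adult McSC and 337 CPM in melanoblasts (-3.64, adjusted p = 5.61e-10). Of the 10 genes described here, Hps3 alone, at -2.29, lay within the range of the 9 cargo genes that fell.

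Most genes of the coat adaptors that sort cargo at endosomes fell under TMM factors, and fewer did with factors from abundant genes, beside 58.5% and 21.8% of genes at least as abundant as Rab32. All 5 AP-3 subunits fell, led by Ap3s2 (log2 fold change -1.50, adjusted p = 8.20e-06) and Ap3s1 (-2.42, adjusted p = 7.70e-06), and 3 did with factors from abundant genes. All 6 genes of AP-1 and its kinesin fell, led by Ap1s2 (-1.49) and Ap1s1 (-1.76), and 1 did with the other factors. Of the 14 tethering and fusion genes 13 fell, among them the SNAREs Vamp3 (-2.03, adjusted p = 5.83e-07) and Stx12 (-1.31), and 3 did with the other factors. Of the 8 subunits of BLOC-1, which works upstream of BLOC-2, 2 fell: Dtnbp1 (-1.61) and Bloc1s6 (-1.29), and only Dtnbp1 did with the other factors. Apart from Dtnbp1 and Snapin, the BLOC-1 genes had lower means than Rab32 in all 3 groups. The shares of genes at least as abundant as Rab32 are therefore not matched to BLOC-1.

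Calls among genes around Rab27a and the motors depended on the scaling. Of 15 Rab27 relatives, effectors and Rab processing genes, 3 rose and 2 fell, whereas under factors from abundant genes 0 fell and 7 rose. Over all 31961 genes tested, 4836 rose and 5840 fell with TMM factors, and 10416 rose and 1985 fell with factors from abundant genes. Exph5, a Rab27 effector, had 14.5 CPM in adult McSC and 1.62 CPM in melanoblasts (log2 fold change 3.15, adjusted p = 8.52e-07), in the same libraries in which keratinocyte markers were higher. Chm, the escort protein for Rab prenylation, had a log2 fold change of -0.99 (adjusted p = 0.000902), which did not pass with factors from abundant genes. Of 11 motor and actin genes 5 fell and 1 rose, or 1 fell and 4 rose with factors from abundant genes, with Rab7 at -1.17 (adjusted p = 0.000156) and the myosin Myo5b at 1.26 (adjusted p = 0.000346). Of 7 copper handling genes only Slc31a1, the copper importer, fell (-1.78, adjusted p = 7.50e-06), and it did so under both scalings, as Atp7a did, while 3 others rose with factors from abundant genes.

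**Figure D4:**
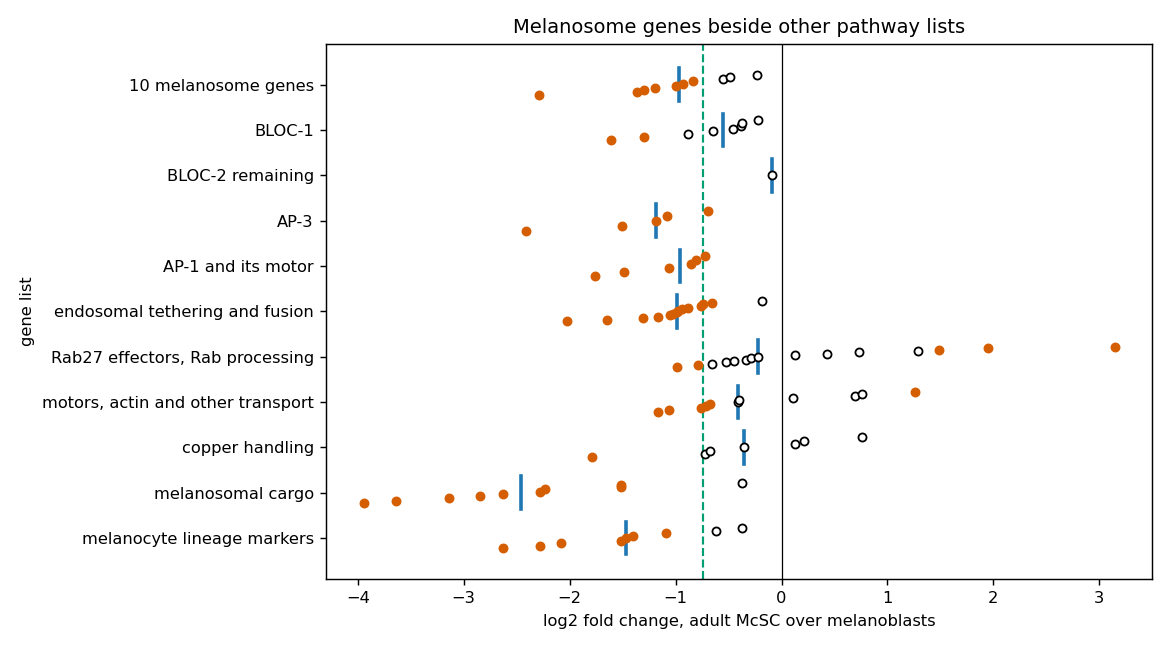
Log2 fold change of every gene, adult McSC over melanoblasts, for the 10 melanosome genes and the other lists. Filled points have an adjusted p under 0.05, open points do not, blue bars are list medians, and the dashed line is the median of the 7253 genes at least as abundant as Rab32, -0.75. The median of the 10 genes, -0.96, lies near that line, and that of melanosomal cargo, -2.45, far below it.

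In aged McSC against adult McSC, 1 of the 77 genes passed, beside 0.303% of all genes. Slc31a2, a relative of the copper importer, had a mean of 10.7 CPM in aged McSC and 28.1 CPM in adult McSC (log2 fold change -1.40, adjusted p = 0.0188), which did not pass with factors from abundant genes (-1.07, adjusted p = 0.163). The most abundant gene of the cargo list, Dct, had a log2 fold change of 0.45 (adjusted p = 0.652). Of the effectors the most abundant, Sytl2, had -0.13, and of the motors and actin genes Fmn1 had -0.22. Snapin of BLOC-1 (-0.49), Hps6 of BLOC-2 (-0.33), Ap3b1 (-0.28), Ap1g1 (-0.41) and the lysosomal trafficking regulator Lyst (-0.25) did not pass either.

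Against melanoblasts, aged McSC had 47 of the 77 genes lower and 8 higher, with a median log2 fold change of -1.06, or 15 lower and 20 higher with factors from abundant genes. Over all 31961 genes tested, 6491 fell and 6514 rose with TMM factors, and 1770 fell and 15341 rose with factors from abundant genes. Of the 10 cargo genes 9 fell, with Slc24a5 at -3.48 and Oca2 at -3.40, and with factors from abundant genes 8 fell and 1 rose. Chosen after their values were seen, the genes whose call differed were Dct, at 0.11 (adjusted p = 0.701) with factors from abundant genes and -1.06 (adjusted p = 0.0252) with TMM factors, and Tyrp1, which rose (0.87, adjusted p = 0.0177). The adaptor genes Ap3s2 (-1.67), Ap3b1 (-1.47), Ap1m1 (-1.67) and Ap1s1 (-2.68) fell, as did Vamp3 (-2.60), Stx12 (-1.55), Dtnbp1 (-2.05) and Bloc1s6 (-1.27). With factors from abundant genes Ap3b1, Ap1m1 and Bloc1s6 no longer passed. Rab7 (-1.81), Chm (-1.37) and the copper genes Slc31a1 (-1.76) and Atox1 (-1.93) fell, of which Chm and Atox1 did not pass with the other factors. Exph5 (2.77) and the myosin Myo5c (1.77) rose under both scalings. Hps6 had a log2 fold change of -0.42 (adjusted p = 0.646).

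The profiles of the 10 genes over the 9 libraries were also set beside those of 6201 other protein-coding genes with a mean log2 CPM of at least 4. The distance is the root mean square difference of centred log2 CPM, a description that shares library depth and scaling. Myo5a had the closest neighbour, Eif2b3, at 0.0493, followed by Tbc1d24 at 0.0798 and Tbc1d4 at 0.0891. The neighbours of Atp7a were Nipa2 (0.0770), Atp2b1 (0.0771) and Eif4e2 (0.0821), and those of Hps5 were Cttnbp2 (0.0774), Usp7 (0.0812) and Ttc17 (0.0896). Rab38 lay nearest to Ncoa5 (0.0965), Colgalt1 (0.109) and Adar (0.118), and Hps4 to Lmf1 (0.0991), Tpcn1 (0.120) and Neo1 (0.121). For Rab27a they were Tmem51 (0.122), Lbh (0.122) and Taok3 (0.126), and for Hps3 Atad5 (0.158), Myef2 (0.174) and Gjc3 (0.183). Hps1, Rab32 and Mlph had no neighbour closer than 0.195: Adhfe1 (0.195), Prodh (0.197) and Rnf157 (0.198) for Hps1, Slc25a44 (0.201), Slc36a1 (0.207) and Akr1b3 (0.211) for Rab32, and Mcoln2 (0.236), Gjb2 (0.246) and Rarb (0.259) for Mlph. Among the 10 genes themselves the closest pairs were Atp7a with Hps5 and Rab27a with Hps4, both at 0.175, and the farthest was Hps1 with Hps3, at 1.09.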

How the data were processed

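Per the labels' protocols, 20 ng of RNA with an integrity number above 8.5 was amplified with the Ovation V2 system, and 1000 ng of cDNA went into TruSeq libraries with 10 PCR cycles and 126-base read pairs. Amplified reads are not independent molecules, so limits from counts cover counting error only. The authors deposited unnormalized counts for each Ensembl gene. Per the submitters' processing notes, Trimmomatic 0.36, FastQC 0.11.8, STAR 2.5.2, SAMtools 1.9, DESeq2 1.22.2 and mm10 were used. How reads were counted (program, annotation, strand) was not given in the sources used here, so reads of overlapping genes may be shared.

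GENCODE vM21 (mm10) matched 49412 of 49671 identifiers, and the other 259 held 0.029% of counts. Within groups, library pairs had chi-squares of 17.5 to 75.1 for each degree of freedom, beyond sampling noise, so each counted as 1 replicate. Groups came from the sample titles. edgeR 4.0.16 (R 4.3.3) fitted all 9 libraries with TMM factors, filterByExpr and group means, and quasi-likelihood p-values were Benjamini-Hochberg adjusted at 0.05 over the 31961 genes kept. The method was tested on simulated counts. Ratios used two-sided exact permutation tests. Other settings tried were RLE factors, limma 3.58.1 (voom, quality weights), DESeq2 1.42.0, TMM factors from genes with average log2 CPM above 5, removal of mitochondrial rRNA, no filter, a stricter filter (5 CPM in at least 2 libraries), only the groups compared, a replicate block, and each library left out.

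The members and lists were chosen with earlier results of these data known. All 10 genes are named. In each comparison the pathway list gives up to 2 genes per subgroup with the smallest p among those past the threshold, or the most abundant where none passed. Neighbours are the 3 closest named protein-coding genes with mean log2 CPM of at least 4.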

Additional observations from a re-analysis of the deposited data

How the results depend on the processing

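Of the 10 genes, Hps3 kept its direction and call in both comparisons with melanoblasts under all 18 alternatives, and Rab27a and Atp7a did in adult McSC against melanoblasts. Against melanoblasts, 7 of the 10 fell and 0 rose under TMM factors in adult McSC, and likewise in aged McSC. With factors from abundant genes 3 fell and 0 rose in adult McSC, beside 6.21% of all genes that fell. In aged McSC 1 then fell (Hps3) and 3 rose (Mlph, Myo5a and Hps1), beside 5.54% of all genes that fell and 48.0% that rose. The stricter filter gave 4 calls in aged McSC, with Hps3, Atp7a and Hps5 lower and Hps1 higher. Leaving out single libraries gave 6 to 9 genes in adult McSC, 4 to 7 in aged McSC and 0 in aged against adult McSC.

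Over all genes, 10676 were called in adult McSC against melanoblasts, 6877 with the stricter filter and 8056 to 14059 without single libraries. The stricter filter tested 13639 genes in each comparison, against 31961 in the main fit, so its counts here have a smaller base. In aged McSC against melanoblasts 13005 were called, 7611 with the stricter filter and 7410 to 16292 without single libraries. In aged against adult McSC 97 were called, beside 339 with DESeq2, 1520 with limma voom, 57 with factors from abundant genes, 343 with no filter, 311 with only the groups compared, 172 with the replicate block and 13 to 303 without single libraries. The lowest of these counts was that without aged replicate 2, and in aged McSC against melanoblasts 7410 were called without aged replicate 1 and 8440 without aged replicate 2. The cause of these shifts was not tested.

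Directions turned with factors from abundant genes. Log2 fold changes became 0.22 for Rab38, 0.28 for Myo5a and 0.52 for Hps1 in adult McSC against melanoblasts. In aged against adult McSC they became 0.33 for Rab27a, 0.26 for Rab32, 0.31 for Atp7a, 0.31 for Hps4 and 0.15 for Hps5. In aged McSC against melanoblasts they became 0.12 for Rab38, 0.68 for Mlph, 0.68 for Myo5a and 0.085 for Hps4. The stricter filter gave 0.24 for Hps1 in adult McSC against melanoblasts. In aged against adult McSC it gave 0.17 for Rab27a, 0.11 for Rab32, 0.16 for Atp7a and 0.16 for Hps4, and in aged McSC against melanoblasts 0.23 for Mlph and 0.23 for Myo5a. In aged against adult McSC, Rab32 was at 0.056 with limma voom. Myo5a was at -0.061 with DESeq2, -0.061 with RLE factors, -0.015 with no filter and -0.075 with the replicate block. Hps3 was at -0.067 with DESeq2, -0.067 with RLE factors, -0.0051 with mitochondrial rRNA removed and -0.029 with no filter. Mlph lost its call in adult McSC with mitochondrial rRNA removed (-0.70) and with the stricter filter (-0.37).

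Without single libraries, log2 fold changes of aged against adult McSC crossed 0 for Rab27a (-0.22 to 0.12), Rab32 (-0.43 to 0.16), Myo5a (-0.077 to 0.19), Atp7a (-0.15 to 0.058), Hps3 (-0.30 to 0.28) and Hps4 (-0.28 to 0.12). Adding 0.5 to each count kept the ratio differences. Same-numbered libraries were not treated as pairs, and their deviations from group means had correlations between -0.29 and -0.01. Such deviations sum to 0 within a group, so with so few libraries the correlations cannot decide whether same-numbered libraries share a litter or batch. The replicate block changed no call of the 10 genes and gave 172 genes in aged against adult McSC. In the fits without 1 aged library, the lone sample is assumed to vary like the other groups.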
